A study of Homo sapiens with 17 samples.

Results

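Caveolins and cavins build the coat of caveolae, the small flask-shaped pits of the plasma membrane. The 5 genes described here are CAV1, CAV2, CAVIN1, CAVIN2 and CAVIN3, taken by symbol from the 41040 named genes of the deposited count tables, and all 5 passed the filter on low counts that left 16891 genes for testing. They were followed by bulk RNA-seq in IMR-90 cells, a diploid fibroblast line from human fetal lung, at week 1 and week 4 after etoposide, a drug that traps topoisomerase II on broken DNA, against untreated cells. Cells of both treated groups received 20 µM etoposide for 48 h, after which the drug was removed, and were harvested at week 1 (6 libraries) or week 4 (6 libraries). Untreated cells were collected at week 0 only (5 libraries), so treatment and time in culture cannot be told apart. The series calls the treated cells senescent.

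CAV1 is the integral membrane protein that inserts into the inner leaflet and forms the discs of the coat, and CAV2 joins it in mixed oligomers. CAVIN1 is the peripheral coat protein without which caveolae do not form. CAVIN2 and CAVIN3 bind to CAVIN1 and shape or move the pits. CAV3 and CAVIN4 are the muscle forms. Fibroblasts are rich in caveolae, which flatten under membrane stretch and take up cargo, and high CAV1 has long been described in cultured senescent fibroblasts.

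Each library held between 77.2 and 102.8 M counts in named genes. Levels are counts per 1 M library counts (CPM), on library totals scaled by TMM, edgeR's correction for composition, with the SD over libraries. A gene was called higher or lower at an adjusted p under 0.05 in edgeR's quasi-likelihood test with Benjamini-Hochberg adjustment over all 16891 genes, and every adjusted p below is of that test. Differences written with ± are log2 fold changes with their SE. Nothing in the labels ties the libraries of a group to separate cultures, and each p-value then reflects library-to-library spread that may be only technical. CDKN1A, the cell cycle inhibitor p21, averaged 284 ± 14.2 CPM at week 0, 2140.3 ± 53.7 at week 1 and 1276 ± 43.3 at week 4, while the proliferation marker MKI67 averaged 410.3 ± 58.4, 42.7 ± 4.61 and 66.5 ± 10.0 CPM. All 10 fibroblast markers were above 1 CPM in each group and together summed to 32964 to 38878 CPM of unscaled totals at week 0, 42696 to 44746 at week 1 and 54470 to 57577 at week 4. Type I collagen genes held most of these sums. On TMM-scaled totals COL1A1 averaged 16894 ± 1633, 20353 ± 657 and 28470 ± 572 CPM at weeks 0, 1 and 4. COL1A2 averaged 8860 ± 872, 17557 ± 377 and 20869 ± 406 CPM. Against week 0, 5 of the 10 markers were called higher and 4 lower at week 1, and 7 higher and 1 lower at week 4. Of all genes, 66.9% and 67.6% were called in these comparisons. The 7 epithelial markers summed to 65.0 to 71.5 CPM of unscaled totals at week 0, 235 to 275 at week 1 and 193 to 213 at week 4. Of these, 4 were under 1 CPM in each group, and the part of the epithelial markers in the results below was not tested. Week 0 replicates 1 and 4 stood apart from the other 3 untreated libraries. They had 5.95% and 5.18% of their counts in ribosomal protein genes, against 3.17% to 3.84%. Results that rest on these replicates are given with and without them, except the correlations between genes, which are given only with them. In bulk RNA, fewer cells of a type and less RNA per cell cannot be told apart.

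The promoters of the family are shown here because CAV2 and CAV1 are neighbours on one chromosome and were called higher in the same comparisons, while CAVIN2 was called in neither direction and CAVIN4 had the widest fold change of the family. Each is the 250 bases before the start lying farthest upstream in the RefSeq promoter table (GRCh38.p14), 5′ to 3′ on the gene's strand. The table matched 3 of the 5 genes, CAV1, CAV2 and CAVIN2, and also CAVIN4. Capitals mark the motifs searched, each on both strands. They were the GC box read by SP factors, spelled GGGCGG. The TATA box, which positions the start, was spelled TATAAA. The box bound by the factor NF-Y was spelled CCAAT. For the TEAD factors of the Hippo pathway the letters were GGAATG. The CArG box of serum response factor was also searched. CAV1 lies at chr7:116524759-116525008 on the plus strand, CAV2 at chr7:116499488-116499737 on the plus strand, CAVIN2 at chr2:191847089-191847338 on the minus strand and CAVIN4 at chr9:100577829-100578078 on the plus strand.
CAV1: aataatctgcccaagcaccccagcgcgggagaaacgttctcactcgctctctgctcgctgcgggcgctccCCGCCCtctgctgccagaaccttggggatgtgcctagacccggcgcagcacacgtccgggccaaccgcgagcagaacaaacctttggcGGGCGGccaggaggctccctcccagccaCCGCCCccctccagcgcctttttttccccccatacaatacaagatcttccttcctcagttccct
CAV2: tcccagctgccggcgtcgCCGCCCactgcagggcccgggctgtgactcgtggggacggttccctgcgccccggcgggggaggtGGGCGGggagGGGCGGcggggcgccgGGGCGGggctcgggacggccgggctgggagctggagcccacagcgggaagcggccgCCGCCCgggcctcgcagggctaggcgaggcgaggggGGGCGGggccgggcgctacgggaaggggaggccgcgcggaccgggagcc
CAVIN2: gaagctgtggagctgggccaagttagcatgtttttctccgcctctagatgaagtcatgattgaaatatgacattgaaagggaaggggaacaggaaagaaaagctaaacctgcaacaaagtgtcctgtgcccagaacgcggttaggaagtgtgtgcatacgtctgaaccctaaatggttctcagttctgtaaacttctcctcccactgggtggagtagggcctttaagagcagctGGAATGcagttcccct
CAVIN4: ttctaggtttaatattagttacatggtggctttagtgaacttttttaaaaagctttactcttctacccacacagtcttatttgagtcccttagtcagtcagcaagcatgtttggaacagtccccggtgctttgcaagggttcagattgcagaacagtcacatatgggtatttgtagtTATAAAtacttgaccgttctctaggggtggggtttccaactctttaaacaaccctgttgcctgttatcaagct

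The CAV1 window held 3 GC boxes, which begin 180, 92 and 64 bases before the start, and the CAV2 window held 6. In CAVIN2 the only match was a GGAATG that begins 16 bases before the start, and in CAVIN4 the only match was a TATAAA that begins 73 bases before it. No match overlapped a match of another motif. Over the 35116 windows of 250 bases in the table, 42.6% held GGGCGG, 10.7% held TATAAA, 32% held CCAAT, 11.9% held GGAATG and 1.16% held a CArG box. GC boxes are thus common letters in human promoters, and a match here is a description of sequence only. GC content was 63.6% for CAV1, 83.2% for CAV2, 48.0% for CAVIN2 and 40.4% for CAVIN4.

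At week 1 against week 0, CAV1, CAV2 and CAVIN1 were called higher, CAVIN3 lower and CAVIN2 in neither direction. Of all tested genes, 66.9% were called in this comparison, 32.9% higher and 34% lower, so 4 calls among 5 genes lie near that background. At week 4 against week 0, CAV1 and CAV2 were called higher and CAVIN3 lower, where 67.6% of all genes were called, 33.9% higher and 33.7% lower. At week 4 against week 1, only CAVIN1 among the 5 was called, and it was lower, where 40.5% of all genes were called, 21.8% higher and 18.6% lower. The changes were small: the median size of the log2 fold change over the 5 genes was 0.27, 0.26 and 0.04 in these 3 comparisons, against 0.46, 0.46 and 0.22 over all tested genes. The signed medians were 0.25, 0.11 and -0.01, against -0.02, 0.00 and 0.01 over all genes. The libraries of the compared groups did not overlap for 3 of the 5 genes at week 1 against week 0, for 1 at week 4 against week 0 and for 2 at week 4 against week 1, where 48.7%, 49% and 30.2% of all genes showed no overlap.

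**Figure D1:**
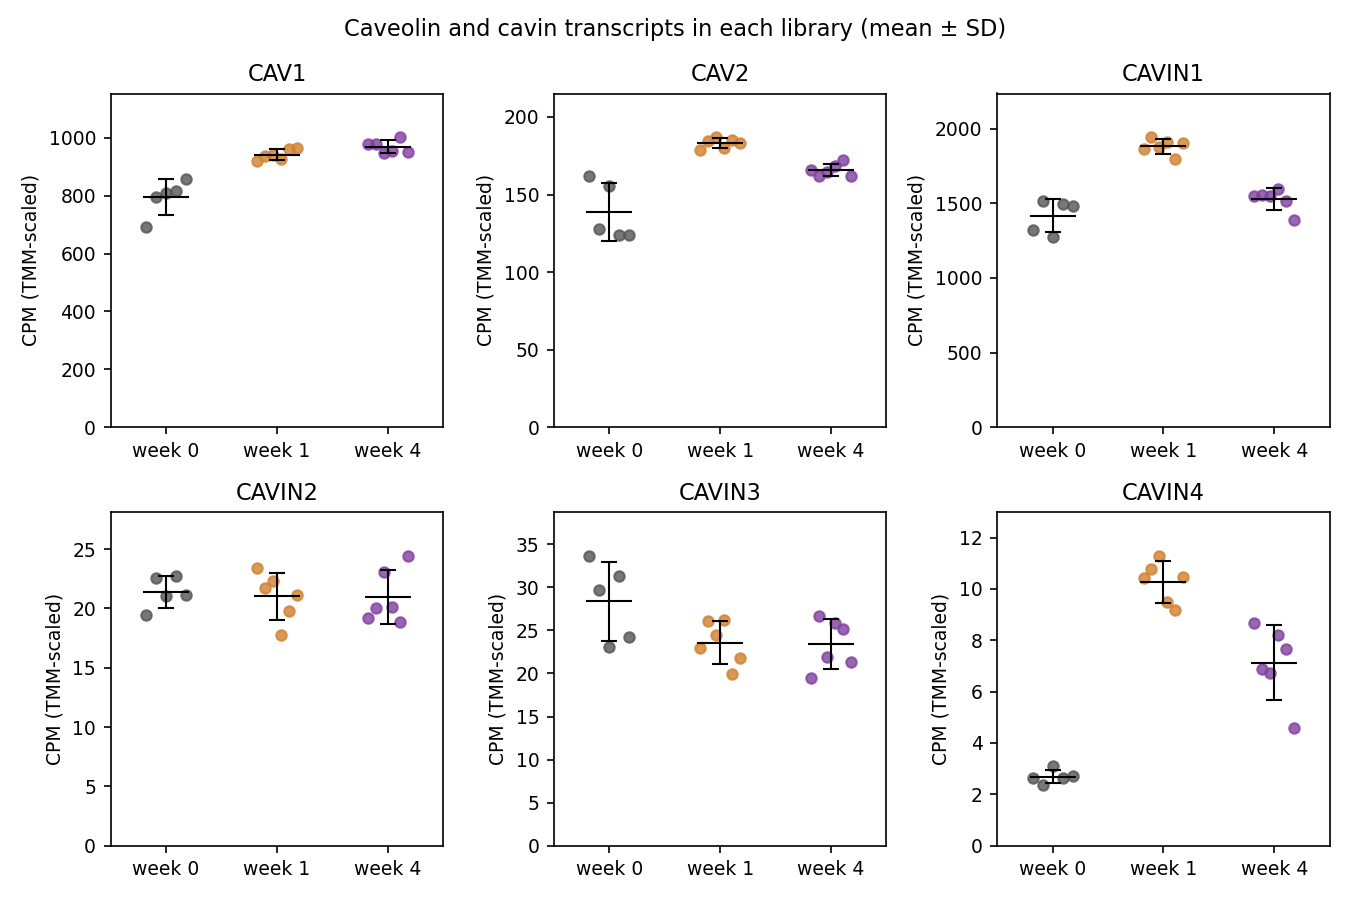
CPM on TMM-scaled totals of the 5 genes and of CAVIN4 in each library (points), with the mean and SD of each group (bars), at week 0 (5 libraries), week 1 (6) and week 4 (6). CAV1 lies above all untreated libraries at both times, CAVIN1 peaks at week 1, CAVIN2 groups overlap throughout, and CAVIN4 is at 2.36 to 3.09 CPM at week 0 and at 4.59 CPM or more in every treated library.

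CAV1, the main caveolin, had 691, 797, 809, 817 and 857 CPM in the 5 untreated libraries. Its lowest, median and highest values were 919, 938 and 966 CPM at week 1 and 949, 968 and 1003 CPM at week 4. Every treated library was above every untreated one, and the 2 treated groups overlapped. The means were 794 ± 62.0, 942 ± 19.0 and 969.7 ± 21.2 CPM at weeks 0, 1 and 4. CAV1 rose 1.19-fold at week 1 (log2 fold change 0.25 ± 0.05 SE, edgeR adjusted p = 7.3e-05) and 1.22-fold at week 4 (0.29 ± 0.05, adjusted p = 1.1e-05). Between week 4 and week 1 the log2 difference was 0.04 ± 0.04 (adjusted p = 0.49). Without week 0 replicates 1 and 4 the rises were 0.19 at week 1 and 0.23 at week 4, both still called. On library totals without TMM factors, CAV1 was higher by 0.08 at week 1 (adjusted p = 0.099) and 0.10 at week 4 (adjusted p = 0.062) and was not called. On those unscaled totals the median gene itself lay at -0.12 at week 1 and -0.14 at week 4 against week 0 (log2).

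CAV2, which needs CAV1 to reach the cell surface, was at a lower level and its untreated libraries were split. It had 162 and 155 CPM in week 0 replicates 1 and 4, and 124 to 128 CPM in the other 3 untreated libraries. At week 1 it had 179, 184 and 187 CPM as lowest, median and highest, and at week 4 162, 165 and 172 CPM. All week 1 libraries exceeded all untreated ones, whereas at week 4 the lowest library met the highest untreated one. CAV2 averaged 139 ± 18.7, 183 ± 3.08 and 166 ± 3.97 CPM at weeks 0, 1 and 4. It rose 1.32-fold at week 1 (0.40 ± 0.06, edgeR adjusted p = 4.3e-06) and 1.197-fold at week 4 (0.26 ± 0.06, adjusted p = 7.2e-04). Without week 0 replicates 1 and 4 these log2 fold changes were 0.55 and 0.40, and the week 4 value thus moved by more than 1.5 times. On unscaled library totals the week 4 rise was 0.07 (adjusted p = 0.34), not called, and the week 1 rise was 0.24 (adjusted p = 0.0014). Week 4 lay below week 1 in every library, by -0.14 ± 0.06 on the log2 scale (adjusted p = 0.0502), which missed the threshold and passed it without replicates 1 and 4 (adjusted p = 7.7e-05).

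CAVIN1, also known as PTRF, was the most abundant of the 5 and the one whose level at week 4 differed most from week 1. Untreated libraries held 1318, 1516, 1273, 1497 and 1482 CPM in replicates 1, 3, 4, 5 and 6. Week 1 libraries ran from 1796 over a median of 1889.98 to 1943 CPM, and week 4 libraries from 1389 over 1548 to 1598 CPM. Week 1 stood clear of both other groups, and week 4 overlapped week 0. Means were 1417 ± 113, 1882 ± 50.2 and 1527 ± 72.3 CPM at weeks 0, 1 and 4. CAVIN1 rose 1.33-fold at week 1 (0.41 ± 0.05, edgeR adjusted p = 2.7e-07) and was 1.23-fold lower at week 4 than at week 1 (-0.30 ± 0.05, adjusted p = 2.9e-05). At week 4 against week 0 it differed by 0.11 ± 0.05 (adjusted p = 0.067), by 0.02 (adjusted p = 0.61) without week 0 replicates 1 and 4, and by -0.09 (adjusted p = 0.12) on unscaled library totals, so the direction depends on the scaling. It was called higher with RLE factors, upper-quartile scaling, DESeq2, limma-voom, a stricter filter and the smaller file class, at 0.11 to 0.18. The week 1 rise was 0.32 without those 2 libraries and 0.25 on unscaled totals, and was called in both.

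CAVIN2, also known as SDPR, which bends the membrane into tubules, did not pass the test in any comparison. It had 19.5, 22.5, 21.0, 22.7 and 21.1 CPM at week 0. Lowest, median and highest values were 17.7, 21.4 and 23.4 CPM at week 1 and 18.9, 20.1 and 24.5 CPM at week 4. The groups overlapped across most of their ranges, with means of 21.4 ± 1.33, 21.0 ± 1.997 and 21.0 ± 2.27 CPM. The log2 fold change was -0.03 ± 0.08 at week 1 (edgeR adjusted p = 0.79) and -0.03 ± 0.08 at week 4 (adjusted p = 0.76), each against week 0. On unscaled library totals it was called lower, by -0.19 at week 1 (adjusted p = 0.039) and -0.22 at week 4 (adjusted p = 0.016). The antisense gene CAVIN2-AS1 overlaps CAVIN2 and held at most 5 counts in any library. The strand setting of the counting is not given in the sources used here, and an effect of the overlap on the CAVIN2 counts was not tested. RefSeq also lists a noncoding gene that overlaps CAVIN1 and another that overlaps CAVIN3, and neither was analysed here.

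CAVIN3, also known as PRKCDBP, which binds protein kinase C delta and links caveolae to microtubule transport, had 33.7, 29.7, 23.1, 31.3 and 24.2 CPM at week 0. Its lowest, median and highest values were 19.9, 23.8 and 26.2 CPM at week 1 and 19.4, 23.6 and 26.7 CPM at week 4. The treated libraries overlapped the 2 lowest untreated ones and lay below the other 3. Averages were 28.4 ± 4.58, 23.6 ± 2.48 and 23.4 ± 2.92 CPM at weeks 0, 1 and 4. CAVIN3 fell 1.204-fold at week 1 (-0.27 ± 0.10, edgeR adjusted p = 0.023) and 1.21-fold at week 4 (-0.28 ± 0.10, adjusted p = 0.019). On unscaled totals the falls were larger, -0.43 (adjusted p = 8.1e-04) and -0.47 (adjusted p = 3.3e-04). The calls on TMM scaling rest on single libraries: without week 0 replicate 1 the values were -0.20 (adjusted p = 0.080) and -0.21 (adjusted p = 0.066), and without week 0 replicate 5 -0.23 (adjusted p = 0.060) and -0.24 (adjusted p = 0.0501). Leaving out week 1 replicate 5 gave -0.22 (adjusted p = 0.061) at week 1, and leaving out week 4 replicate 1 gave -0.23 (adjusted p = 0.051) at week 4.

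**Figure D2:**
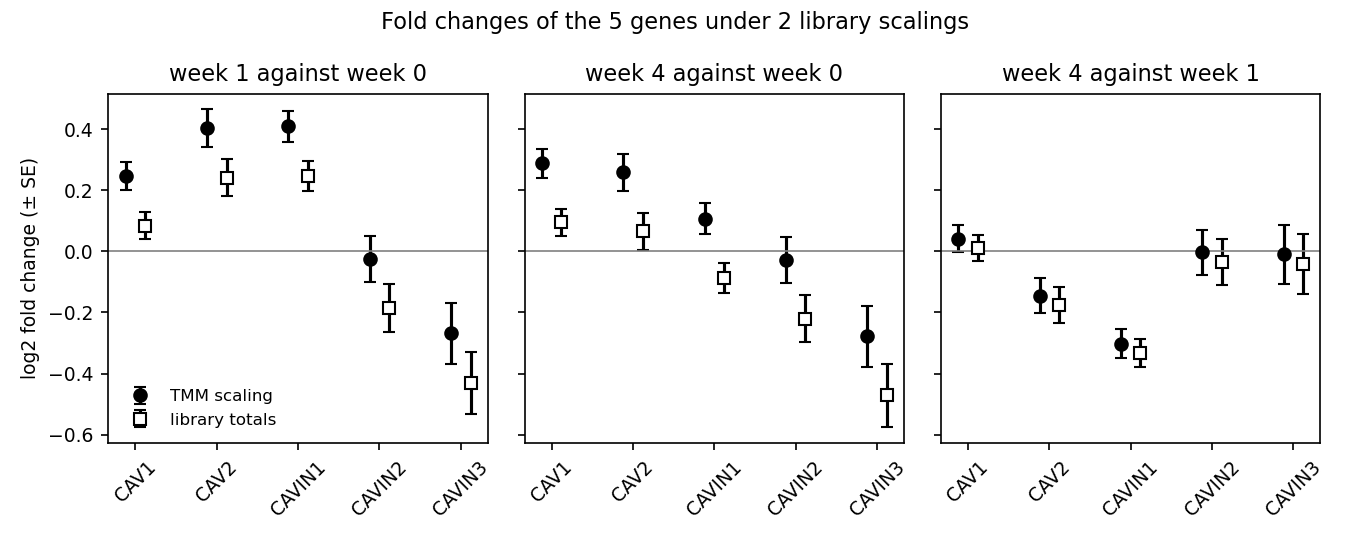
Log2 fold changes (± SE) of the 5 genes in the 3 comparisons, with TMM scaling (filled circles) and on library totals without scaling factors (open squares). The unscaled values against week 0 sit lower for every gene, with CAVIN1 at week 4 at 0.11 with TMM scaling and -0.09 without it, while CAVIN1 at week 4 against week 1 is -0.30 with TMM scaling and -0.33 without it.

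The deposited gene lengths, such as 3868 bases for CAV1 and 6578 for CAV2, were used to set levels of different genes side by side. Whether they match the transcripts expressed here was not tested, and the order, ranks and ratios per kilobase depend on them. Per kilobase, the order at week 0 was CAVIN1 with 397 ± 31.7 CPM per kb, CAV1 with 205 ± 16.0 and CAV2 with 21.1 ± 2.84. CAVIN3 with 18.2 ± 2.94 and CAVIN2 with 6.999 ± 0.434 followed. CAV2 and CAVIN3 overlapped between untreated libraries, and all other neighbours in that order were apart. At week 1 the same order held, with 527 ± 14.1 CPM per kb for CAVIN1, 243 ± 4.91 for CAV1, 27.9 ± 0.469 for CAV2, 15.1 ± 1.59 for CAVIN3 and 6.88 ± 0.654 for CAVIN2. At week 4 they were at 428 ± 20.2, 251 ± 5.49, 25.2 ± 0.604, 15.04 ± 1.88 and 6.86 ± 0.742 CPM per kb, and no neighbours overlapped at either treated time. By level per kilobase CAVIN1 was at rank 48, 34 and 45 of 16891 at weeks 0, 1 and 4, and CAV1 at rank 106, 96 and 91. The other 3 ranked lower, with CAV2 at 1663, 1220 and 1288, CAVIN3 at 1972, 2341 and 2245, and CAVIN2 at 4620, 4472 and 4482. Together the 5 genes held 0.262% ± 0.0149 of all named counts at week 0, 0.298% ± 0.00470 at week 1 and 0.258% ± 0.00603 at week 4.

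Ratios within a library do not depend on library scaling, and they are given without a test. CAVIN1 per kilobase was 1.94 ± 0.152 times CAV1 at week 0, 2.17 ± 0.0826 times at week 1 and 1.71 ± 0.0838 times at week 4, and the week 4 libraries all lay below the week 1 libraries. CAV2 stood at 0.104 ± 0.0219 of CAV1 at week 0, 0.114 ± 0.00199 at week 1 and 0.101 ± 0.00218 at week 4. The untreated spread comes from replicates 1 and 4, at 0.138 and 0.113, where the other 3 lay between 0.0848 and 0.0943. CAVIN3 over its partner CAVIN1 was 0.0461 ± 0.00801, 0.0287 ± 0.00246 and 0.0352 ± 0.00394 at weeks 0, 1 and 4. CAVIN2 over CAVIN1 was 0.0177 ± 0.000998, 0.0131 ± 0.00128 and 0.0161 ± 0.00244. For both minor cavins, every week 1 library lay below every untreated one, and week 4 overlapped both.

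**Figure D3:**
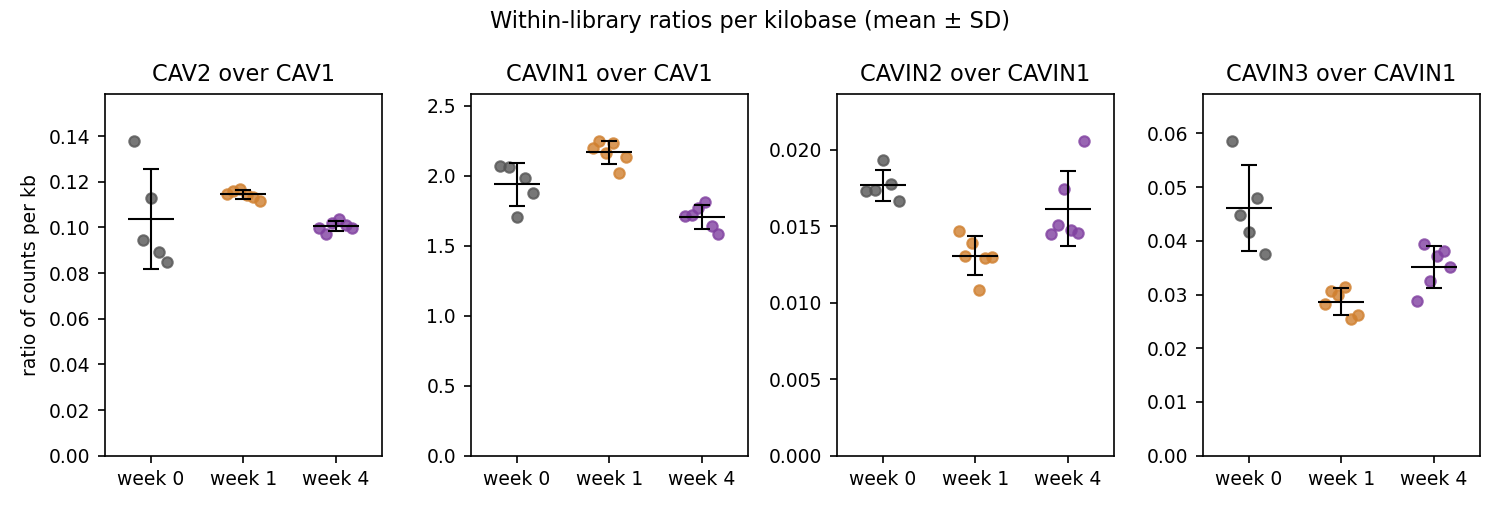
Within-library ratios of counts per kilobase (points), with the mean and SD of each group (bars), at week 0, week 1 and week 4. CAVIN1 over CAV1 is 2.17 at week 1 and 1.71 at week 4 without overlap, and the CAV2 over CAV1 ratio is spread at week 0, from 0.0848 to 0.138.

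Among the muscle forms, CAVIN4, also known as MURC, had 2.63, 2.36, 3.09, 2.65 and 2.70 CPM at week 0. At week 1 the lowest, median and highest libraries had 9.16, 10.4 and 11.3 CPM, and at week 4 4.59, 7.28 and 8.69 CPM. No treated library overlapped the untreated ones, and week 4 lay below week 1 throughout. CAVIN4 rose 3.82-fold at week 1 (1.94 ± 0.13, edgeR adjusted p = 5.2e-12) and 2.65-fold at week 4 (1.41 ± 0.12, adjusted p = 1.2e-09), and was 1.44-fold lower at week 4 than at week 1 (-0.53 ± 0.11, adjusted p = 5.6e-04). Per kilobase it stayed the lowest of the tested family, at 0.867 ± 0.0839, 3.32 ± 0.260 and 2.30 ± 0.469 CPM per kb at weeks 0, 1 and 4. CAV3 held 0 to 2 counts at week 0, 0 to 10 at week 1 and 0 to 6 at week 4 and was not tested. Of 5 striated muscle markers, MYOG was at 0 counts in every library. The list summed to 0.977 to 2.03 CPM of unscaled totals at week 0, 0.605 to 1.148 at week 1 and 0.564 to 0.971 at week 4. Desmin (DES), the muscle intermediate filament, averaged 0.751 ± 0.176, 2.59 ± 0.403 and 3.56 ± 0.491 CPM and was called higher in all 3 comparisons. It is 1 of 6 smooth muscle markers, which moved in both directions against week 0. At week 1, 2 were called higher and 2 lower, and at week 4, 3 higher and 1 lower. Of all genes, 66.9% and 67.6% were called in these comparisons, so the marker counts lie near that background. ACTA2, the smooth muscle actin, was among those lower at week 1 (-0.28 ± 0.06, adjusted p = 2.3e-04). The smooth muscle list summed to 954 to 1023 CPM of unscaled totals at week 0, 807 to 896 at week 1 and 735 to 876 at week 4. These sums are not on the TMM scale of the DES and ACTA2 values. The part of these markers in the CAVIN4 result was not tested.

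Of 9 genes for proteins at the neck and flanks of caveolae, 5 rose and 1 fell at week 1, 3 rose and 1 fell at week 4, and 2 were higher and 1 lower at week 4 than at week 1, where 66.9%, 67.6% and 40.5% of all genes were called. The list's median log2 fold change was 0.34, 0.09 and -0.08 in these comparisons, and at week 4 against week 0 it was -0.11 on unscaled totals, with 2 higher and 4 lower. EHD2, the ATPase that rings the neck, averaged 648 ± 57.8, 819.7 ± 20.7 and 767 ± 29.2 CPM at weeks 0, 1 and 4, and rose by 0.34 ± 0.05 at week 1 (edgeR adjusted p = 4.6e-06) and by 0.24 ± 0.05 at week 4 (adjusted p = 2.5e-04). It was not called at week 4 on unscaled totals (0.05, adjusted p = 0.40), and was at 0.15 there without week 0 replicates 1 and 4, still called. Without them it was also called lower at week 4 than at week 1 (-0.10, adjusted p = 0.0095), where it had missed the threshold (adjusted p = 0.13). EHD1, its endosomal relative, averaged 144 ± 13.5, 210.0 ± 10.5 and 153 ± 7.43 CPM, with 0.55 ± 0.06 at week 1 against week 0 (adjusted p = 1.8e-08) and -0.46 ± 0.05 at week 4 against week 1 (adjusted p = 5.5e-07). CAVIN1 had the same 2 calls, in the same directions. EHD3, another relative, rose to 67.5 ± 1.80 CPM at week 1, against 36.0 ± 3.36 at week 0 (0.91 ± 0.06, adjusted p = 5.6e-12), and to 79.2 ± 5.50 CPM at week 4 (1.14 ± 0.06, adjusted p = 1.3e-13).

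ROR1, a receptor that scaffolds CAVIN1 and CAV1, averaged 14.6 ± 1.42, 26.6 ± 1.91 and 27.4 ± 1.63 CPM at weeks 0, 1 and 4. It rose by 0.86 ± 0.07 at week 1 (edgeR adjusted p = 1.8e-10) and 0.91 ± 0.07 at week 4 (adjusted p = 8.4e-11). FLNA, the filamin that ties CAV1 to actin, fell by 0.18 at week 1 (adjusted p = 0.0091), a call lost with upper-quartile scaling (adjusted p = 0.090), and was higher at week 4 than at week 1 (0.17 ± 0.05, adjusted p = 0.014). Without week 0 replicates 1 and 4 it was at -0.30 at week 1 and was also called lower at week 4 against week 0 (-0.12, adjusted p = 0.0034). PACSIN2, the F-BAR protein of caveolae, fell by 0.11 at week 4 (adjusted p = 0.045) and was not called there with RLE factors (adjusted p = 0.076). Without those replicates it was at -0.19 at week 4 and was also called lower at week 1 (-0.11, adjusted p = 0.0083). PACSIN1, its brain form, is the fifth gene called higher at week 1 but lay at 0.0730 to 0.284 CPM there, against 0 to 0.102 CPM at week 0.

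**Figure D4:**
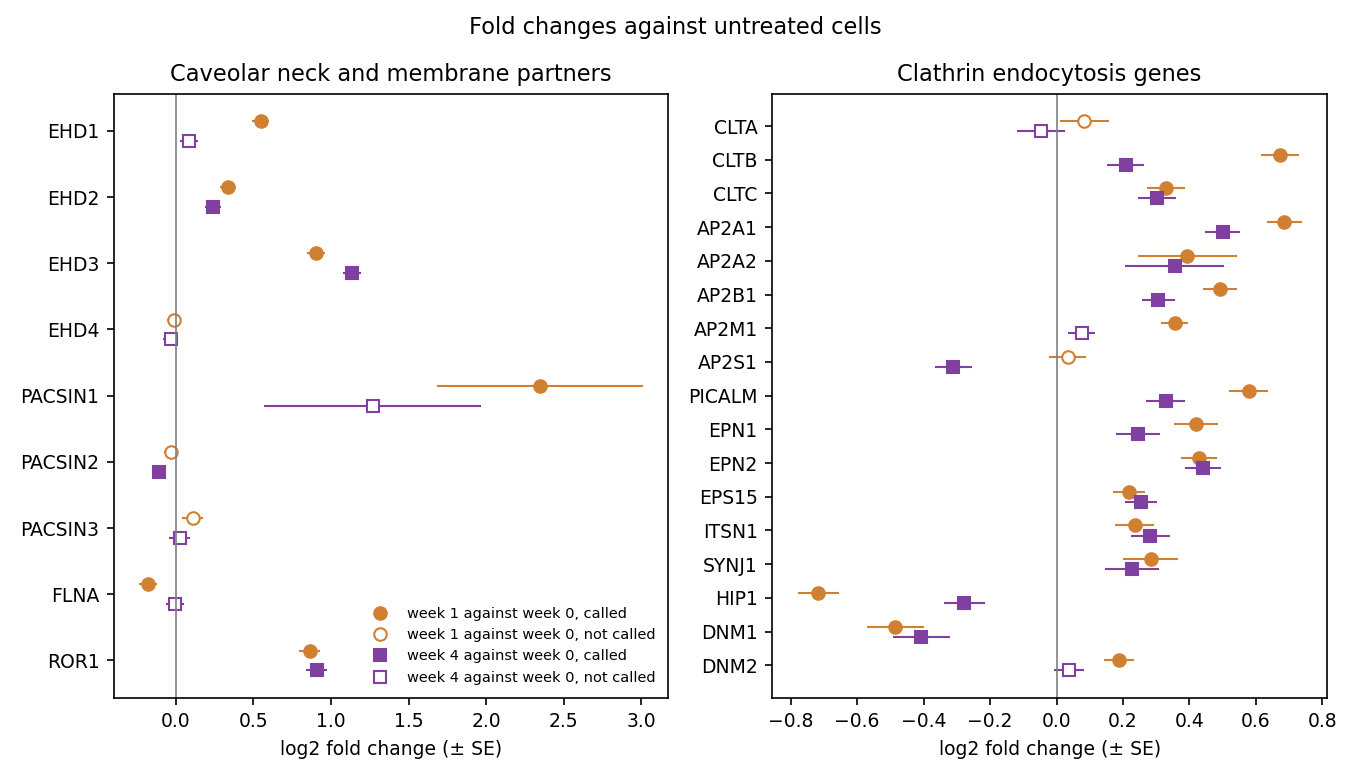
Log2 fold changes (± SE) at week 1 (circles) and week 4 (squares) against week 0 for the 9 neck and membrane partners (left) and the 17 clathrin endocytosis genes (right), filled where called. EHD3 and ROR1 lie near or above 0.86 at both times. PACSIN1, at 0.284 CPM or less in every library, lies farthest right in that panel, at 2.35 and 1.27. Most clathrin genes lie right of 0. HIP1 and DNM1 lie left of it at both times, and AP2S1 (-0.31, called) and CLTA (-0.05, not called) at week 4.

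Of 8 tested genes for kinases and enzymes that bind the coat, 4 rose and 0 fell at week 1, and 5 rose and 1 fell at week 4 (medians 0.18 and 0.41), against 66.9% and 67.6% of all genes called. On unscaled totals 3 rose and 2 fell at week 1 and 5 rose and 3 fell at week 4. The genes that rose include NOS3, endothelial nitric oxide synthase, at only 0.0743 ± 0.0517, 0.292 ± 0.120 and 0.313 ± 0.125 CPM at weeks 0, 1 and 4. FYN, a Src-family kinase that phosphorylates CAV1, averaged 29.6 ± 1.35, 56.7 ± 1.37 and 53.0 ± 1.82 CPM at weeks 0, 1 and 4 (0.94 ± 0.04 at week 1, edgeR adjusted p = 1.2e-14, and 0.84 ± 0.04 at week 4, adjusted p = 9.7e-14). PRKCD, the kinase after which CAVIN3 got its older name, rose by 0.60 ± 0.06 at week 1 (adjusted p = 8.5e-09) and 0.69 ± 0.06 at week 4 (adjusted p = 9.1e-10), whereas CAVIN3 itself was called lower. CSK, which restrains Src kinases, fell by 0.21 at week 4 against week 0 (adjusted p = 0.0015).

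Of 4 genes that act in CAV1 turnover, 3 rose and 0 fell at week 1, 2 rose and 2 fell at week 4, and 3 were lower at week 4 than at week 1. Of all genes, 66.9% and 67.6% were called against week 0, and 40.5% at week 4 against week 1, 18.6% lower. On unscaled totals 2 of the 4 rose and 0 fell at week 1. UBXN6, a VCP cofactor that sorts CAV1 to lysosomes, rose by 0.72 ± 0.05 at week 1 (edgeR adjusted p = 5.9e-11) and 0.54 ± 0.05 at week 4 (adjusted p = 9.0e-09), and the ubiquitin ligase ZNRF1 rose by 0.38 ± 0.06 and 0.45 ± 0.06 (adjusted p = 6.7e-06 and 5.5e-07). The ATPase VCP itself averaged 404 ± 20.2 CPM at week 4, against 464.7 ± 19.7 CPM at week 0 (-0.20 ± 0.04, adjusted p = 2.6e-04).

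Of 10 receptors reported in caveolae, 5 rose and 4 fell at week 1, and 7 rose and 1 fell at week 4 (medians 0.28 and 0.61), against 66.9% and 67.6% of all genes called. On unscaled totals 5 rose and 5 fell at week 1 and 6 rose and 2 fell at week 4. TGFBR2, the type II TGF-beta receptor, averaged 162 ± 16.0, 417 ± 10.4 and 434 ± 20.1 CPM at weeks 0, 1 and 4, with 1.36 ± 0.06 at week 1 (edgeR adjusted p = 1.7e-15) and 1.42 ± 0.06 at week 4 (adjusted p = 1.0e-15). Its type I partner TGFBR1 fell to 65.0 ± 4.94 CPM at week 1, against 121 ± 13.3 CPM at week 0 (-0.90 ± 0.09, adjusted p = 1.1e-08). At week 4 it was at 117 ± 19.5 CPM, not called against week 0 (-0.06 ± 0.09, adjusted p = 0.60) and higher than at week 1 (0.84 ± 0.09, adjusted p = 1.0e-07). On unscaled totals it was called lower at week 4 against week 0 (-0.25, adjusted p = 0.023). KDR, a VEGF receptor that is also an endothelial marker, fell to 0.239 ± 0.132 CPM at week 1 and 0.415 ± 0.288 CPM at week 4, against 4.36 ± 0.456 CPM at week 0 (-4.20 ± 0.36 and -3.36 ± 0.33, adjusted p = 6.9e-10 and 9.1e-09). The 8 endothelial markers, of cells rich in caveolae, summed to 83.9 to 103 CPM of unscaled totals at week 0, 58.4 to 62.4 at week 1 and 52.1 to 76.7 at week 4. Most of each sum was TEK. On TMM-scaled totals, and so not on the scale of the sums, TEK averaged 83.6 ± 7.08, 59.6 ± 1.87 and 69.0 ± 9.42 CPM at weeks 0, 1 and 4. Of the 4 tested markers, KDR and TEK were lower at both times, and VWF and PECAM1 were higher at both times from low levels, with VWF at 0.7098 ± 0.220, 1.57 ± 0.380 and 1.25 ± 0.108 CPM and PECAM1 at 0.00204 ± 0.00456, 0.581 ± 0.253 and 0.141 ± 0.0883 CPM. The 5 adipocyte markers, of another such cell, summed to at most 2.27 CPM of unscaled totals in any library.

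Genes of the flotillin and stomatin families and of clathrin endocytosis were set beside the caveolar ones. Of 4 tested flotillin and stomatin genes, 3 rose and 1, STOML2, fell at both times. Of all genes, 66.9% and 67.6% were called at these times. At week 4 against week 1, 3 of the 4 were lower, where 40.5% of all genes were called, 18.6% lower. On unscaled totals 2 rose and 1 fell at week 4 against week 0. FLOT2 averaged 77.7 ± 5.69, 115 ± 3.78 and 99.9 ± 2.96 CPM at weeks 0, 1 and 4 (0.56 ± 0.05 and 0.36 ± 0.05 against week 0, edgeR adjusted p = 3.5e-10 and 4.2e-07). STOML2 had 177 and 149.7 CPM in week 0 replicates 1 and 4 and 81.0 to 105 in the other 3 untreated libraries. It was lower at both times, at 62.2 ± 2.03 and 65.0 ± 3.35 CPM (-0.97 ± 0.13 and -0.90 ± 0.13, adjusted p = 8.8e-07 and 2.3e-06), and by -0.60 and -0.53 without replicates 1 and 4, still called. FLOT1 was listed at 0 counts in all 17 libraries, and whether this reflects its expression or the counting was not tested. Of 17 clathrin endocytosis genes, 13 rose and 2 fell at week 1, where 66.9% of all genes were called and 32.9% called higher, and 11 rose and 3 fell at week 4, where 67.6% were called and 33.9% called higher. The list's medians were 0.33 and 0.24. On unscaled totals these counts were 8 and 3 at week 1 and 4 and 6 at week 4, with medians of 0.17 and 0.05. The adaptor subunit AP2A1 rose by 0.69 ± 0.05 at week 1 (adjusted p = 1.0e-10) and the light chain CLTB by 0.67 ± 0.06 (adjusted p = 4.1e-10), while the adaptor HIP1 (-0.72 ± 0.06, adjusted p = 7.0e-10) and the fission GTPase DNM1 (-0.49 ± 0.09, adjusted p = 3.0e-05) fell. At week 4 against week 1, 1 clathrin gene was higher and 8 were lower, among them CLTB (-0.46 ± 0.05, edgeR adjusted p = 3.6e-07). Of all genes, 40.5% were called in this comparison, 21.8% higher and 18.6% lower.

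For each gene, the 3 of 10117 genes at 5 CPM or more with the most similar course were taken by Pearson's r of log2(CPM + 1) over the 17 libraries, which share groups and scaling, so r is a description. For CAV1 these were HSP90B1 (0.97), PKD2 (0.97) and MKRN1 (0.97), for CAV2 ANXA4 (0.99), UAP1 (0.98) and YPEL5 (0.98), and for CAVIN1 EHD1 (0.99), CLPTM1 (0.98) and CTTN (0.98). CAVIN3 was most like SLC2A4RG (0.91), CCDC85B (0.89) and HOMER3 (0.85). CAVIN2, with little difference between groups, reached at most 0.64, with KCTD12 and BCAR3, and 0.62 with PDLIM5. ANXA4, which like CAV2 was low at week 0, averaged 41.5 ± 10.2, 70.1 ± 2.005 and 57.6 ± 2.86 CPM at weeks 0, 1 and 4. The untreated libraries ran from 33.0 to 53.4 CPM for ANXA4, from 131 to 178 for UAP1 and from 39.4 to 75.9 for YPEL5. The r values were not taken without week 0 replicates 1 and 4, and the part of those replicates in them was not tested.

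On the chromosome, RefSeq places TES, CAV2, CAV1 and MET next to each other in this order. TES, a focal adhesion protein, rose by 0.57 ± 0.05 at week 1 (edgeR adjusted p = 3.2e-10) and 0.64 ± 0.05 at week 4 (adjusted p = 5.2e-11), and MET, the HGF receptor, by 0.18 ± 0.06 (adjusted p = 0.014) and 0.35 ± 0.06 (adjusted p = 5.0e-05). With TMM scaling all 4 genes of this stretch were called higher at both times, where 32.9% and 33.9% of all genes were called higher. On unscaled totals TES was still called at both times (0.41 and 0.45), CAV2 at week 1 and MET at week 4 (0.15, adjusted p = 0.031), while CAV1 was called at neither time and MET at week 1 was at 0.02 (adjusted p = 0.76). Without week 0 replicates 1 and 4, MET at week 1 was also not called (0.08, adjusted p = 0.12). STAT3 and ATP6V0A1 beside CAVIN1 rose at week 1, as CAVIN1 did, by 0.66 ± 0.05 and 1.34 ± 0.06 (adjusted p = 3.6e-11 and 1.8e-15), and at week 4, by 0.74 ± 0.05 and 0.65 ± 0.05 (adjusted p = 5.2e-12 and 5.7e-10). At week 4 against week 1, ATP6V0A1 was lower, like CAVIN1 (-0.69 ± 0.05, adjusted p = 6.2e-10), and STAT3 was not called (0.09 ± 0.04, adjusted p = 0.14), although it was called higher there without week 0 replicates 1 and 4 (adjusted p = 0.013). SMPD1, the acid sphingomyelinase beside CAVIN3, rose by 1.06 ± 0.05 at week 1 and 0.55 ± 0.05 at week 4 (adjusted p = 2.1e-14 and 2.1e-09), while CAVIN3 was lower. NABP1 and TMEFF2 beside CAVIN2 were at 0.89 ± 0.07 (adjusted p = 1.2e-10) and -1.68 ± 0.16 (adjusted p = 6.5e-09) at week 1, and at week 4 neither was called (-0.04 ± 0.07 and -0.11 ± 0.16, adjusted p = 0.60 and 0.55). On unscaled totals NABP1 was called lower at week 4 (-0.24, adjusted p = 0.0070).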

How the data were processed

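Column-purified, DNase-treated RNA went into an Illumina library kit, per the labels' protocols. The authors deposited raw counts per gene symbol, made with HISAT2 2.0.5.2 and featureCounts 1.4.6 per the submitters' processing notes, which name the mouse build mm10 although the symbols are human. The build behind the counts is thus unclear, and the strand setting is not given in the sources used here. The deposited tables of 4 libraries also hold a gene length, and those lengths were used for levels per kilobase. The row with no gene name, 0.221% to 0.289% of counts, was left out. Libraries of a group differed from each other by more than sampling noise (chi-square per gene at least 7.24 over 40 pairs).

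edgeR 4.0.16 in R 4.3.3 was fitted to all 17 libraries with 1 mean per group, after filterByExpr and TMM (factors 0.938 to 1.11). The biological coefficient of variation was 11.7%. The scripts were tested on simulated data. The 5 genes and the gene lists were chosen with earlier results of these data known. Beside the family, the text names from each list up to 2 genes called higher and 2 called lower with the smallest adjusted p, the 3 genes with the most similar course and the chromosomal neighbours, in part. EHD1, EHD2, PACSIN1, NOS3, CLTA and the muscle, endothelial and fibroblast markers were named after their values were seen. Alternatives were RLE, upper-quartile and no scaling factors, DESeq2 1.42.0, limma-voom 3.58.1, other filters, a replicate block, only the groups compared, file class, the 10 most abundant genes left out, fits without week 0 replicates 1 and 4, and leave-one-out fits over all libraries. The unscaled fit, the larger file class and the fits of list genes and neighbours without week 0 replicates 1 and 4 were added after seeing the data.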

Additional observations from a re-analysis of the deposited data

Results flagged for a closer look

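The effect of week 4 differed from that of week 1 for CAVIN1 by -0.302 and for CAVIN4 by -0.529 on the log2 scale, each past the threshold of the edgeR test between the treated groups (adjusted p = 2.9e-05 and 5.6e-04), with all 6 week 4 libraries below all 6 week 1 libraries for both genes. No single library was flagged by Dixon's criterion among the 30 combinations of gene or ratio and group examined. That criterion weighs the gap between the most extreme library and its nearest neighbour. It can miss libraries that deviate together, as week 0 replicates 1 and 4 did for CAV2, at 162 and 155 CPM against 124 to 128 CPM.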

How the results depend on the processing

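The calls of CAV1 and CAVIN1 at week 1, CAV2 at week 1, CAVIN1 at week 4 against week 1 and CAVIN4 in all comparisons kept their direction and side of the threshold in every alternative run, except that CAV1 at week 1 was not called on unscaled library totals. Without scaling factors the values were 0.084 (CAV1, week 1), 0.095 (CAV1, week 4), 0.066 (CAV2, week 4), -0.19 and -0.22 (CAVIN2, weeks 1 and 4) and -0.18 (CAV2, week 4 against week 1). Genes called split there into 4344 higher and 7438 lower at week 1, against 5565 and 5740 with TMM, and into 4201 and 7649 at week 4, against 5722 and 5692. CAVIN1 at week 4 against week 0 passed the threshold with RLE (0.12), upper-quartile (0.18), DESeq2 (0.12), limma-voom (0.11), a stricter filter (0.13) and the smaller file class (0.15). CAVIN3 lost its call with upper-quartile scaling (-0.20 at week 1, -0.21 at week 4) and, at week 1, in the larger file class (-0.17). CAV2 at week 4 against week 1 was called with RLE, DESeq2, limma-voom, no filter and the smaller file class (-0.15 each), with only the groups compared and without the 10 most abundant genes (-0.16 each), and without week 0 replicates 1 and 4 (-0.14), where 2 of the 5 genes were then called, as on unscaled totals. The ratio of CAV2 to CAV1 was 0.36 and 0.17 higher (log2) at weeks 1 and 4 without those replicates, against 0.14 and -0.05 with them. Leaving out each library in turn gave -0.34 to -0.20 and -0.34 to -0.21 for CAVIN3 at weeks 1 and 4, 0.069 to 0.13 for CAVIN1 at week 4, and -0.16 to -0.14 for CAV2 and 1 to 2 of the 5 genes called at week 4 against week 1. CAVIN1 at week 4 was called without week 0 replicate 3 or 5 or week 4 replicate 6, and CAV2 at week 4 against week 1 when any single week 0 library was left out. The cause was not tested. A replicate block left 11096, 11180 and 6669 genes and 4, 3 and 1 of the 5 called in the 3 comparisons, and same-numbered libraries deviated together with r of 0.04 to 0.25, -0.08 to 0.23 and -0.13 to 0.17, with 7 of 32 correlating best with their own number, so the numbers were not used as pairs. At these depths the least abundant of the 5, CAVIN2, had at least 1417 counts per library.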
